A study of Mus musculus with 9 samples.

Results

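The endoplasmic reticulum (ER) folding and degradation machinery was followed as a set of 34 genes across the fetal liver erythroblasts of 3 genotypes. The genes were listed by name for their known roles, with earlier results of these data known, so shares of the set read against the whole array are descriptions. Each is read from the probe set, the group of array probes designed to 1 gene, that carries its symbol alone, taking the brightest probe set where a gene has several. All 34 genes have such a probe set, out of 19938 genes that do on this array, and 33 passed the filter on dim probe sets. The exception was Ero1b, an ER oxidase, which lay between 3.35 and 3.49 (log2 values) on all 9 arrays, under the level of 4.52 to 4.62 that a probe set had to pass.

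The samples are mouse erythroblasts, the nucleated precursors of red cells, sorted from fetal liver at E14.5. Th3 is a deletion of the adult beta-globin genes that models beta-thalassemia. The groups are wild type, Th3/+ with 1 such allele and Th3/Th3 with no intact copy, 3 arrays each, and all embryos came from crosses between Th3/+ parents of a 129SV line backcrossed for 9 generations onto C57BL/6. In all groups the sort kept cells that carried the transferrin receptor CD71 and the erythroid surface marker Ter119 and had high forward scatter, a measure of size. Each array was made from 35 ng of amplified RNA. The labels call the 3 samples of a genotype biological replicates but do not give the number of embryos in each, so the p-values measure the spread between these samples.

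Proteins bound for the membrane or the cell surface enter the ER through the Sec61 channel, are folded there by chaperones such as BiP (Hspa5) and by protein disulfide isomerases, and, if they fail, are drawn back to the cytosol and destroyed by the proteasome, a route called ER-associated degradation (ERAD). When misfolded protein builds up, the sensors IRE1 (Ern1) and ATF6 and the IRE1 product XBP1 raise transcription of chaperone and ERAD genes, a programme known as the unfolded protein response. Erythroblasts lose the ER with their other organelles as they mature, and globin itself is made and folded in the cytosol, not in the ER.

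ATF6 and XBP1 act through short DNA elements, which were looked for in the promoters of the set and are shown first because the values are later read by them. RefSeq windows from 250 bases before to 50 after the transcription start (build GRCm38.p6) were at hand for 28 of the 34 genes. There was none for Atf6, Hyou1, Manf, Derl1, Erlec1 and Sec61a1. The ER stress response element (ERSE) was searched as CCAAT, then 9 free bases, then CCACG, on both strands, where NF-Y binds the first box and ATF6 or XBP1 the second. A match stood in 8 of the 28 genes (28.6%), against 37 of all 27025 genes with a window (0.137%). The matches are shown 5′ to 3′ along each gene's strand, with 10 bases on either side and the matched boxes in capitals. Matches on the opposite strand read CGTGG, then 9 bases, then ATTGG.
Hspa5, chr2:34772015-34772053, plus strand: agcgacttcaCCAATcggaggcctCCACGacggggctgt
Hsp90b1, chr10:86705628-86705666, minus strand: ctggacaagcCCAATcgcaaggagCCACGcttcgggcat
Hsp90b1, chr10:86705523-86705561, minus strand: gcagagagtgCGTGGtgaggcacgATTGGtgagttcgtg
Pdia6, chr12:17266481-17266519, plus strand: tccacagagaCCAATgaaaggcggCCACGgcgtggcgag
Syvn1, chr19:6046522-6046560, plus strand: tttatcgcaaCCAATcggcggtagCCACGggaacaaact
Creld2, chr15:88819510-88819548, plus strand: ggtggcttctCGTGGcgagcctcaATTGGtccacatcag
Calr, chr8:84847065-84847103, minus strand: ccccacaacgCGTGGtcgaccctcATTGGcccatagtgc
Canx, chr11:50325790-50325828, minus strand: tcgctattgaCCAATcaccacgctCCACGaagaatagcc
Ero1b, chr13:12565672-12565710, plus strand: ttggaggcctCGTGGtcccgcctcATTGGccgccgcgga

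The match lies on the gene's own strand in Hspa5, Pdia6, Syvn1 and Canx, on the opposite strand in Creld2, Calr and Ero1b, and once on each in Hsp90b1. Counted from the transcription start, the matches begin between position -212 (the outer site of Hsp90b1) and position -44 (Syvn1). The genes are the chaperones of the ER lumen BiP (Hspa5) and GRP94 (Hsp90b1), the lectin chaperones calreticulin (Calr) and calnexin (Canx), the disulfide isomerase Pdia6, the oxidase Ero1b, the ER chaperone-like protein Creld2, and the ERAD ubiquitin ligase HRD1 (Syvn1). A match is a description of the letters and was not tested as a binding site. Only exact matches were counted, so a gene without one may still hold a similar stretch.

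**Figure D1:**
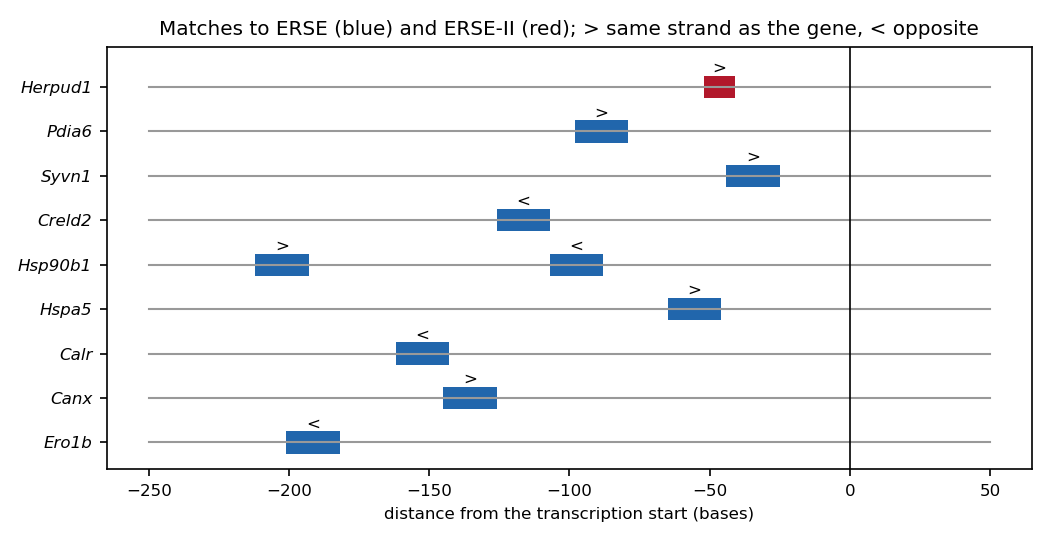
Positions of the ERSE (blue) and ERSE-II (red) matches in the promoter windows of the 9 genes that hold one, with the distance from the transcription start in bases on the x axis and an arrowhead for the strand. All 10 matches lie upstream of the start, which the vertical line marks, between positions -212 and -44 at their first base.

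A shorter relative, ERSE-II, was searched as ATTGG, 1 free base and CCACG. Among the 28 genes Herpud1 alone held it, against 12 of all 27025 genes (0.0444%), starting at position -52. The core of the unfolded protein response element, TGACGTGG, stood in Vcp alone at position -114, against 193 of all genes (0.714%). A heat shock element, searched as GAA, 2 bases, TTC, 2 bases and GAA, stood in Nploc4 alone at position -176, against 179 of all genes (0.662%). These 3 sites are printed because each belongs to a degradation gene described further on.
Herpud1, chr8:94386367-94386397, plus strand: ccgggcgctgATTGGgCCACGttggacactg
Vcp, chr4:43000604-43000631, minus strand: tgcggccaatTGACGTGGcgttactagg
Nploc4, chr11:120437854-120437886, minus strand: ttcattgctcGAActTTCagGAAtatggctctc

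An antioxidant element, searched as TGAC, 3 bases and GCA, stood in Atf6b alone, against 932 of all genes (3.45%). The plain CCAAT box, which ERSE and ERSE-II contain, stood in 21 of the 28 genes (75.0%), against 11096 of all genes (41.1%). In the Vcp site a ccaat precedes the capitals directly and shares no base with them. The upstream 250 bases of Herpud1 and Hspa5 show the element in its surroundings for the gene with the largest rise and for BiP, the chaperone most used as a mark of the response. The Herpud1 stretch holds 2 CCAAT boxes counted on both strands, and the Hspa5 stretch holds 4.
Herpud1, chr8:94386179-94386428, plus strand: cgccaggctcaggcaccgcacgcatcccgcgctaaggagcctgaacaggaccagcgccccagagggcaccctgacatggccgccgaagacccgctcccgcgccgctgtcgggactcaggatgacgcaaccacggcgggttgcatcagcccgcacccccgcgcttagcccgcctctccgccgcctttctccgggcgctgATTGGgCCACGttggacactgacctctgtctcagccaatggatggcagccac
Hspa5, chr2:34771840-34772089, plus strand: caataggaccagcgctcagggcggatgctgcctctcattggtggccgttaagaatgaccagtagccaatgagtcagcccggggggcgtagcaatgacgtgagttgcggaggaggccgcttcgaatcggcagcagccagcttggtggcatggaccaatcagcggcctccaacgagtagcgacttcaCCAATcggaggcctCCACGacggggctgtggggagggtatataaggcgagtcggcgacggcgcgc

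Across the whole array, the medians of the 9 arrays lay between 4.97 and 5.05 and arrays of a genotype had rank correlations of 0.986 to 0.994. On the first principal component, with 47.4% of the variance, the 3 Th3/Th3 arrays lay at 32.6 to 36.6 and all others at -23.8 to -9.19. On the next component, with 16.7%, Th3/Th3 replicate 1 (25.5) and Th3/+ replicate 1 (20.5) had the highest scores. Wild type replicates 1 and 2 followed at 7.71 and 5.16, and the remaining arrays lay at -14.9 to -8.9. The counts of called genes are also given without the replicate 1 arrays of Th3/+ and Th3/Th3. The sort was checked against marker genes: 10 measured erythroblast markers had mean levels of 10.28 to 11.29 on every array, far above the array medians. In Th3/Th3 8 of the 10 fell against wild type, beside 4.98% of all probe sets called lower. The mean level of the 10 was 11.13 to 11.29 in wild type, 11.07 to 11.18 in Th3/+ and 10.28 to 10.53 in Th3/Th3. Tfrc, which encodes CD71, was among the 8 and fell by 1.12 (adjusted p 0.000192). In a bulk sample fewer cells of a type and less RNA per cell cannot be told apart.

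In Th3/Th3 against wild type, 7 of the 33 tested genes rose and 0 fell: the degradation genes Herpud1, Derl1, Nploc4 and Vcp, the disulfide isomerases Pdia4 and Pdia6, and the protease gene Mbtps1. A gene is called where the adjusted p of the limma model over all 17742 tested probe sets is under 0.05. That is 21.2% of the genes, beside 7.31% of all probe sets called higher and 4.98% called lower. These shares are of unlike units. The 33 genes have 1 probe set each, above the filter level on all 9 arrays. The 17742 also hold dimmer probe sets and ones with several or no gene symbols, and no matched share was computed. The median difference over the 33 genes was 0.29 on the log2 scale, against 0.00 over all probe sets, with a range of -0.52 (Erlec1) to 1.46 (Herpud1). The estimate was above 0 in 26 genes and below 0 in 7. An unadjusted p under 0.05 was found in 14 of the 33 genes and in 4567 of the 17742 probe sets. In 13 genes all 3 Th3/Th3 arrays lay above all 3 wild type arrays, where 15.4% of all probe sets did so, and in 2 (Canx and Ssr1) all 3 lay below, where 12.1% of all probe sets did so. The main chaperones BiP and GRP94 were not called.

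**Figure D2:**
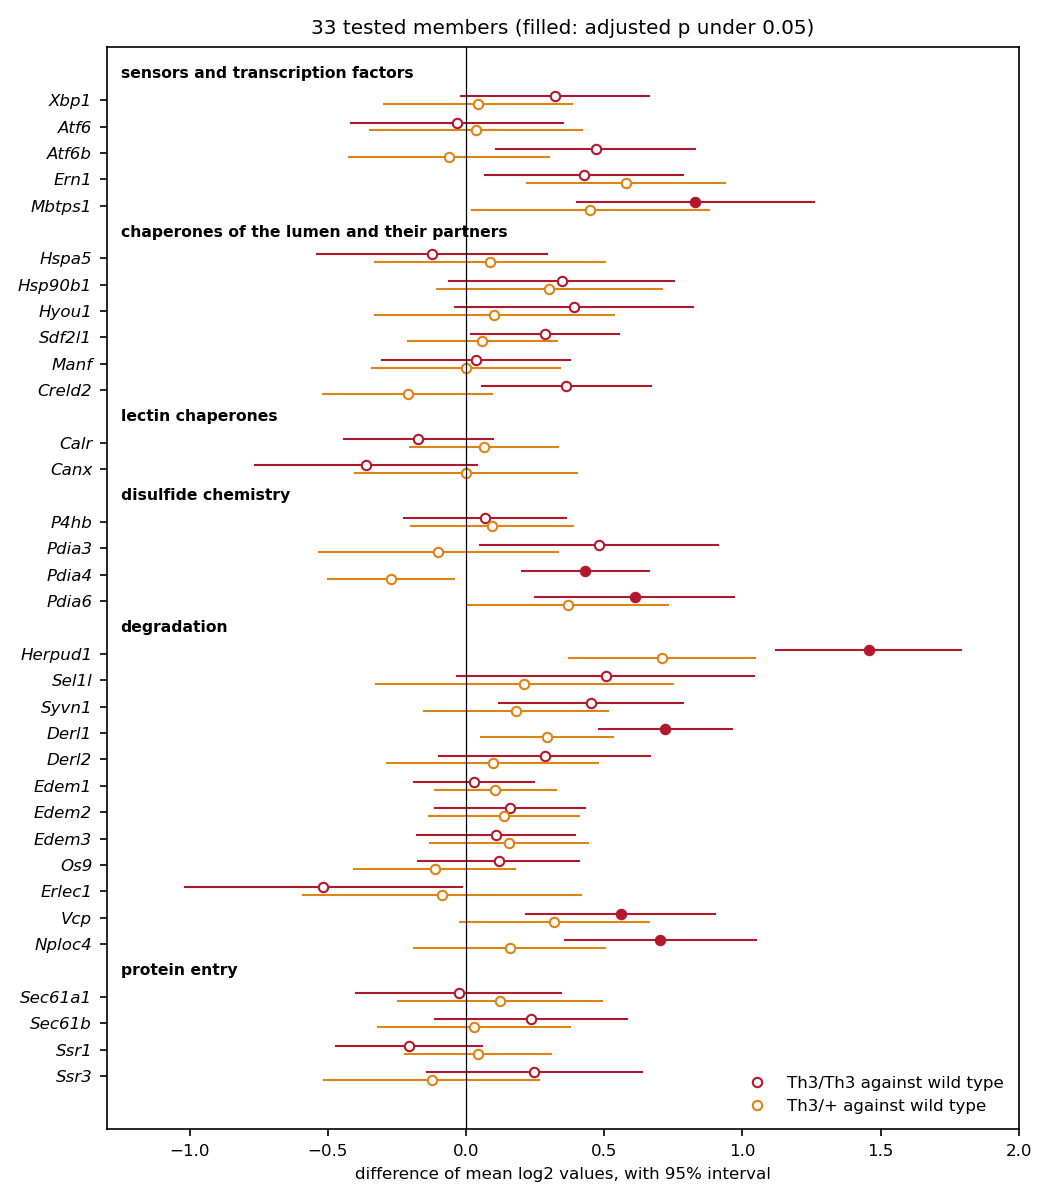
Differences of mean log2 values with 95% intervals for the 33 tested genes, grouped by role, for Th3/Th3 minus wild type (red) and Th3/+ minus wild type (orange); filled points have an adjusted p under 0.05. The 7 filled points are all red and lie between 0.43 (Pdia4) and 1.46 (Herpud1), and no orange point is filled.

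The calls differ in how far they rest on single arrays. Without wild type replicate 2, and likewise without Th3/Th3 replicate 3, 2 genes stayed called (Herpud1 and Derl1); without wild type replicate 1 it was 3 (with Nploc4), and without Th3/Th3 replicate 1 it was 4 (with Nploc4 and Pdia4). With Th3/+ replicate 1 and Th3/Th3 replicate 1 both left out, 3 of the 7 stayed called (Herpud1, Derl1 and Pdia4), 4 were lost (Mbtps1, Pdia6, Vcp and Nploc4) and 1 other gene, Pdia3, was called.

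In Th3/+ against wild type, limma called 0 of the 33 genes, where 5 of the 17742 probe sets (0.0282%) were called in either direction. There 6 of the 33 genes had an unadjusted p under 0.05, as did 645 of the 17742 probe sets. The median difference was 0.09, with a range of -0.27 (Pdia4) to 0.71 (Herpud1). All 3 Th3/+ arrays lay above all 3 wild type arrays in 4 genes (Herpud1, Derl1, Pdia6 and Ern1), where 4.40% of all probe sets did so, and below them in 1 (Os9), where 3.22% did so.

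In Th3/Th3 against Th3/+, 4 of the 33 genes rose (12.1%) and 0 fell, beside 4.01% of all probe sets called higher and 3.26% called lower. They were Herpud1, Derl1, Pdia4 and Creld2. The median difference was 0.23. An unadjusted p under 0.05 was found in 7 of the 33 genes, about the same share as over all probe sets (3750 of 17742). The Th3/Th3 arrays were all higher in 11 genes, where 12.9% of all probe sets were. They were all lower in 2 (Calr and Ssr1), where 1761 of the 17742 probe sets were. The 3 pairwise comparisons share their arrays, so the same Th3/Th3 or wild type arrays stand behind more than 1 of them. Leaving out Th3/+ replicate 1 or Th3/+ replicate 2 left 1 gene called, Pdia4, and leaving out wild type replicate 1 or 2 or Th3/Th3 replicate 1 or 3 left 2, Pdia4 and Herpud1. With both replicate 1 arrays named above left out, Pdia4 alone stayed called.

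The position of Th3/+ between the other genotypes was read from its difference to their midpoint. The model called 0 of the 33 genes there, and 14 of the 17742 probe sets (0.0789%) in either direction. At an unadjusted p under 0.05 were 3 genes (Pdia4, Creld2 and Ern1) and 1389 of the 17742 probe sets. The mean of Th3/+ lay between the other means in 17 of the 33 genes (51.5%, against 49.5% of all probe sets), above both in 10 and below both in 6.

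Degradation held 4 of the 7 genes that rose, out of 12, beside 7.31% of all probe sets called higher. Its median difference was 0.37. The roles hold between 2 and 12 tested genes each, and differences between their shares were not tested. Herpud1 encodes HERP, a membrane protein of the ERAD ligase complex. Its log2 values were 7.98, 8.11 and 7.88 on the wild type arrays, 8.58, 8.63 and 8.89 on the Th3/+ arrays and 9.69, 9.26 and 9.39 on the Th3/Th3 arrays. The 3 genotypes did not overlap: each Th3/+ array was above each wild type array and below each Th3/Th3 array. The means were 7.99 ± 0.11, 8.70 ± 0.16 and 9.45 ± 0.22 (SD, n = 3). Th3/Th3 was 2.74-fold above wild type (log2 difference 1.46, SE 0.15, 95% interval 1.12 to 1.79, adjusted p 0.000495) and 1.68-fold above Th3/+ (0.75, adjusted p 0.0174). Th3/+ was 0.71 above wild type (95% interval 0.37 to 1.05, unadjusted p 0.00094), which was not called (adjusted p 0.521). It lay at the midpoint of the other genotypes, with a difference of -0.02 (95% interval -0.31 to 0.27). The rise over wild type was called in all 20 alternatives, between 1.34 and 1.55. The call against Th3/+ was lost without Th3/+ replicate 1, without Th3/+ replicate 2, with the replicate 1 arrays of Th3/+ and Th3/Th3 both left out, and in a fit on these genotypes alone.

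Derl1 encodes derlin-1, a membrane protein of the channel through which ERAD substrates leave the ER. It read 9.07, 9.06 and 9.23 on the wild type arrays, 9.47, 9.37 and 9.40 on the Th3/+ arrays and 9.90, 9.74 and 9.88 on the Th3/Th3 arrays. As in Herpud1, the 3 genotypes did not overlap, with Th3/+ between the others. Th3/Th3 was 1.65-fold above wild type (0.72, SE 0.11, 95% interval 0.48 to 0.96, adjusted p 0.00276), which was called in all 20 alternatives. It was 0.43 above Th3/+ (adjusted p 0.0422), a call lost when any array but wild type replicate 3 was left out. Its paralog Derl2 differed by 0.28 (adjusted p 0.346) between Th3/Th3 and wild type.

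Vcp encodes p97, the ATPase that pulls ERAD substrates into the cytosol, and Nploc4 encodes its cofactor NPL4. Vcp read 10.27, 10.21 and 10.67 on the wild type arrays, 10.54, 10.75 and 10.81 on the Th3/+ arrays and 10.83, 10.82 and 11.18 on the Th3/Th3 arrays. All Th3/Th3 arrays were above all others, by a narrow gap to Th3/+, and wild type and Th3/+ overlapped. The rise over wild type was 1.47-fold (0.56, SE 0.15, adjusted p 0.0423) and was the least firm of the 7, lost in 12 of 20 alternatives, among them the omission of any array but wild type replicate 3 or Th3/+ replicate 1. Nploc4 read 8.65, 8.35 and 8.84 on the wild type arrays, 8.76, 8.72 and 8.84 on the Th3/+ arrays and 9.47, 9.13 and 9.36 on the Th3/Th3 arrays. Here the Th3/Th3 arrays stood clear of the other 6, while wild type and Th3/+ overlapped. The rise was 1.63-fold (0.70, SE 0.15, 95% interval 0.36 to 1.05, adjusted p 0.0162), and it was lost without wild type replicate 2, without Th3/Th3 replicate 3, and with both replicate 1 arrays named above left out. Against Th3/+ the difference of 0.55 was not called (adjusted p 0.0664), though it was called under a stricter filter and in a fit without the mean-variance trend.

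The other 8 degradation genes were not called. Syvn1, the HRD1 ligase, differed by 0.45 between Th3/Th3 and wild type (adjusted p 0.0818) and its partner Sel1l by 0.51 (adjusted p 0.222). The mannosidase-like proteins Edem1, Edem2 and Edem3, which mark misfolded glycoproteins for disposal, differed by 0.03, 0.16 and 0.11. The ERAD lectins Os9 and Erlec1 differed by 0.12 and -0.52, and Erlec1 (8.56 ± 0.32 in wild type and 8.04 ± 0.34 in Th3/Th3, SD, n = 3) had the lowest estimate of the whole set (adjusted p 0.182). Differences thus ran from -0.52 to 1.46 among genes of 1 route.

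**Figure D3:**
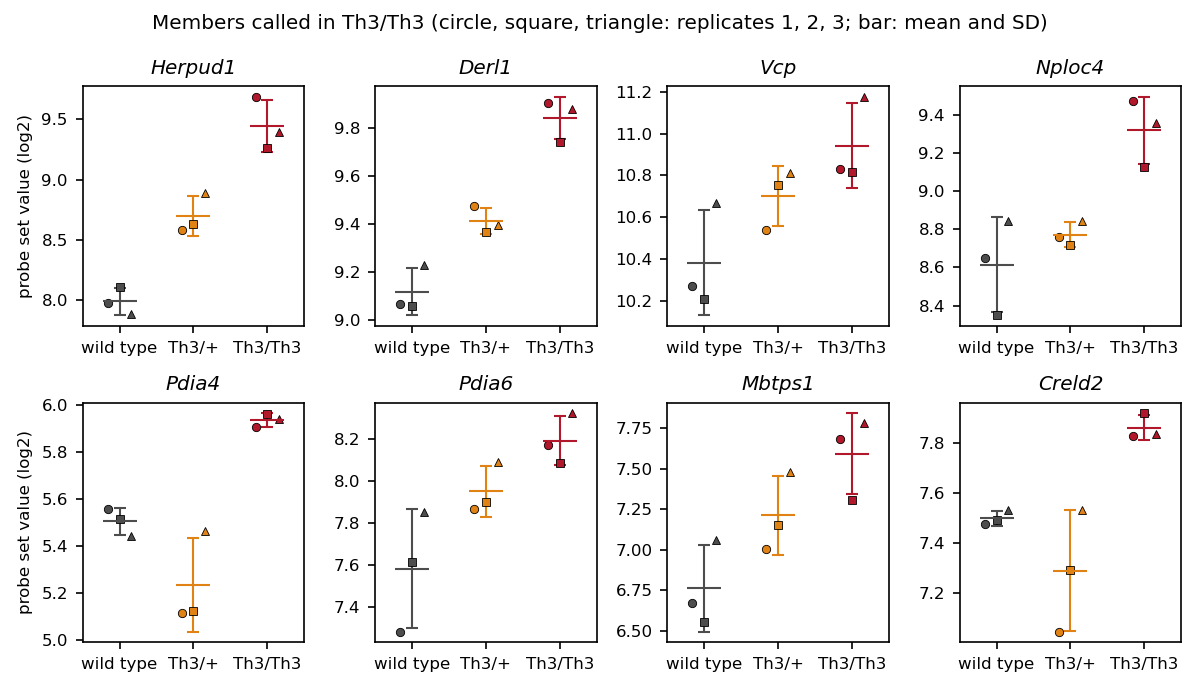
Log2 values on each of the 9 arrays, with the mean and SD (n = 3), for the 8 genes called in Th3/Th3 against wild type or against Th3/+; each panel has its own y axis, which does not start at 0. Herpud1 and Derl1 step up from wild type to Th3/+ to Th3/Th3 with no overlap, while Pdia4 and Creld2 have their lowest mean in Th3/+.

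Disulfide chemistry held 2 of the risen genes out of 4 tested, beside 7.31% of all probe sets called higher, with a median difference of 0.46. Pdia4 (ERp72) and Pdia6 (P5) are isomerases that form and reshuffle disulfide bonds. Pdia4 read 5.56, 5.51 and 5.44 on the wild type arrays, 5.12, 5.12 and 5.46 on the Th3/+ arrays and 5.91, 5.96 and 5.94 on the Th3/Th3 arrays. The Th3/Th3 arrays were tight and above all others, and the lowest values were those of Th3/+ replicates 1 and 2. The rise was 1.35-fold over wild type (0.43, SE 0.10, adjusted p 0.0235) and 1.63-fold over Th3/+ (0.70, SE 0.10, adjusted p 0.00432), the latter called in all 19 alternatives that gave it a value. The mean of Th3/+ minus the midpoint of the other genotypes was not called (-0.49, 95% interval -0.69 to -0.29, adjusted p 0.106). The call over wild type was lost without wild type replicate 1, 2 or 3 and without Th3/Th3 replicate 2 or 3. A second, dimmer Pdia4 probe set read between 2.98 and 3.55 on the 9 arrays, under the filter, and gave no result.

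Pdia6 read 7.28, 7.61 and 7.85 on the wild type arrays, 7.86, 7.90 and 8.09 on the Th3/+ arrays and 8.17, 8.09 and 8.32 on the Th3/Th3 arrays. Both thalassemic genotypes were above all wild type arrays and overlapped each other. The rise in Th3/Th3 was 1.53-fold (0.61, SE 0.16, adjusted p 0.0371), lost in 11 of 20 alternatives, among them the omission of any array but wild type replicate 3 or Th3/+ replicate 1. Pdia3 (ERp57), which works with the lectin chaperones, differed by 0.48 (adjusted p 0.149) and P4hb, the founding isomerase PDI, by 0.07 (adjusted p 0.803). Ero1b, the oxidase that recharges isomerases, was too dim to test, and its paralog Ero1a is given among the related genes.

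Of the 5 sensors and transcription factors, 1 rose, beside 7.31% of all probe sets called higher. Mbtps1 encodes the Golgi site-1 protease that cleaves ATF6, a step in its release from the membrane. It read 6.67, 6.55 and 7.06 on the wild type arrays, 7.005, 7.15 and 7.48 on the Th3/+ arrays and 7.69, 7.31 and 7.78 on the Th3/Th3 arrays. All Th3/Th3 arrays were above all wild type arrays, and Th3/+ overlapped both. The rise was 1.78-fold (0.83, SE 0.19, 95% interval 0.40 to 1.26, adjusted p 0.0207), lost without wild type replicate 1 or 2, without Th3/Th3 replicate 1 or 3, and with both replicate 1 arrays of the thalassemic genotypes left out.

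The sensors themselves were not called. Ern1 (IRE1) read 6.88, 6.38 and 6.88 on the wild type arrays, 7.10, 7.48 and 7.30 on the Th3/+ arrays and 7.15, 7.10 and 7.17 on the Th3/Th3 arrays. Every array of the thalassemic genotypes was above every wild type array, and the highest value was in Th3/+. The differences from wild type were 0.58 in Th3/+ (unadjusted p 0.00519, adjusted p 0.902) and 0.43 in Th3/Th3 (95% interval 0.07 to 0.79, adjusted p 0.126). Xbp1, whose mRNA IRE1 splices, read 6.57, 6.88 and 7.04 on the wild type arrays, 6.91, 6.77 and 6.94 on the Th3/+ arrays and 7.33, 6.94 and 7.19 on the Th3/Th3 arrays. The genotypes overlapped, and the difference of 0.32 in Th3/Th3 was not called (95% interval -0.02 to 0.66, adjusted p 0.220). A probe set for the whole gene does not tell spliced from unspliced Xbp1. Atf6 read 8.33, 8.47 and 8.67 on the wild type arrays, 8.26, 8.84 and 8.47 on the Th3/+ arrays and 8.44, 8.33 and 8.60 on the Th3/Th3 arrays. Its genotypes overlapped throughout, with a difference of -0.03 (95% interval -0.42 to 0.35, adjusted p 0.933), so these arrays bound a change to within those limits. The related Atf6b differed by 0.47 (adjusted p 0.0974).

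The 6 chaperones of the lumen and their partners held 0 calls against wild type, with 2 at an unadjusted p under 0.05 and a median difference of 0.32. Hspa5 (BiP) is the main HSP70 of the ER and the gene most often read as a mark of the unfolded protein response. It read 10.80, 11.08 and 11.43 on the wild type arrays, 11.09, 11.33 and 11.16 on the Th3/+ arrays and 10.62, 11.16 and 11.16 on the Th3/Th3 arrays. The highest array was wild type and the lowest Th3/Th3, and the genotypes overlapped. The difference was -0.12 (95% interval -0.54 to 0.29, adjusted p 0.740), and the estimate ranged from -0.28 to 0.06 over the alternatives. Hsp90b1 (GRP94) read 10.35, 10.61 and 10.83 on the wild type arrays, 10.71, 10.87 and 11.12 on the Th3/+ arrays and 10.59, 11.16 and 11.08 on the Th3/Th3 arrays. It also overlapped, with a difference of 0.35 (95% interval -0.06 to 0.75, adjusted p 0.272). The upper bounds of 0.29 for Hspa5 and 0.75 for Hsp90b1 lie under the lower bound of 1.12 for Herpud1.

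Creld2 was the only one of these 6 called in any comparison. It read 7.47, 7.49 and 7.53 on the wild type arrays, 7.04, 7.29 and 7.53 on the Th3/+ arrays and 7.83, 7.92 and 7.84 on the Th3/Th3 arrays. All Th3/Th3 arrays were above the other 6, and the Th3/+ arrays were the most spread. The rise over Th3/+ was 1.49-fold (0.57, SE 0.14, adjusted p 0.0353), a call lost when any array but Th3/+ replicate 3 was left out. Over wild type the difference of 0.36 was not called (adjusted p 0.127). Hyou1 (an HSP110 relative that recharges BiP) differed by 0.39 (adjusted p 0.242), Sdf2l1 (a partner of ER J-domain proteins) by 0.29 (adjusted p 0.168) and the secreted ER stress protein Manf by 0.03 (adjusted p 0.922).

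The lectin chaperones, which hold glycoproteins while they fold, were the group with both estimates below 0. Calr differed by -0.17 (adjusted p 0.420) and Canx by -0.36 (adjusted p 0.245), neither called and 0 at an unadjusted p under 0.05. In Canx all 3 Th3/Th3 arrays were below all wild type arrays. The 4 genes of protein entry were likewise not called, with 0 at an unadjusted p under 0.05 and a median of 0.10: the channel subunits Sec61a1 (-0.03) and Sec61b (0.23), and the translocon-associated Ssr1 (-0.21) and Ssr3 (0.25). Sec61b has 3 probe sets, which gave 0.23, 0.21 and 0.22.

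**Figure D4:**
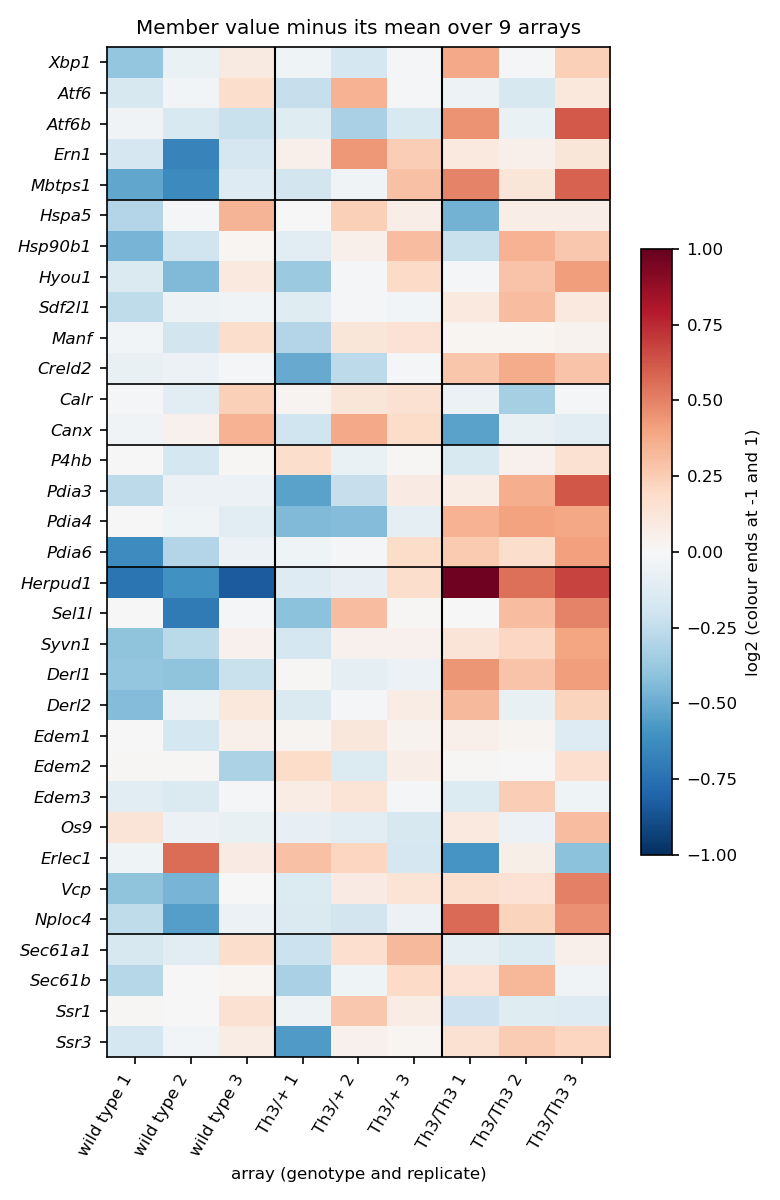
Each tested gene's log2 value on each array minus its mean over the 9 arrays, from blue (-1 or less) to red (1 or more), with genes ordered by role and arrays by genotype and replicate. Herpud1 has the strongest contrast between wild type and Th3/Th3, and in Hspa5, Hsp90b1 and Canx the replicate 1 array is the lowest of its genotype in all 3 genotypes.

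Read by promoter element, 7 of the 8 genes with an ERSE could be tested. Against wild type 1 of the 7, Pdia6, rose in Th3/Th3, and 1, Creld2, rose against Th3/+, where 7 and 4 of all 33 tested genes rose. The gene with ERSE-II, Herpud1, rose in both comparisons, and the genes with the unfolded protein response element core (Vcp) and the heat shock element (Nploc4) rose against wild type. Atf6b, the gene with the antioxidant element, was not called (0.47, adjusted p 0.0974). Of the 20 tested genes with a CCAAT box, 4 rose against wild type, where 7 of all 33 did. Together the 8 tested genes of the set with ERSE or ERSE-II had 2 calls higher and 0 lower, with a median difference of 0.35. Over all 33 genes 21.2% were called higher, with a median of 0.29. Outside the set, 40 genes hold ERSE or ERSE-II in their windows, and 17 of them were tested. Of the 17, 0 were called higher and 1 lower (Rcl1, -1.01), beside 7.31% and 4.98% of all probe sets. Their median was 0.02, and 4 had an unadjusted p under 0.05. Among the 17 are 4 ER genes of the related lists described further on: Derl3 (-0.05, adjusted p 0.851), Dnajb11 (0.35, adjusted p 0.115), Dnajc3 (0.70, adjusted p 0.125) and Krtcap2 (-0.42, adjusted p 0.0570).

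Within genotypes, a low replicate 1 array was noticed after the values were seen. In 7 of the 33 genes (21.2%) the replicate 1 array was the lowest of its genotype in all 3 genotypes, against 7.37% of all probe sets: Hspa5, Hsp90b1, Creld2, Canx, Syvn1, Pdia3 and Ssr3. The first 5 of these hold an ERSE, so this was true of 5 of the 7 tested genes with an ERSE (71.4%, all but Calr and Pdia6), of 2 of the 20 with a window and no ERSE and of 0 of the 6 without a window. It was true of 0 of 10 tested genes outside the set with an ERSE and of 1031 of all 12898 tested genes (7.99%). Replicate 2 was the lowest in all genotypes in 2 of the 33 genes (6.06%, against 1.85% of all probe sets). Replicate 3 was so in 0, against 5.65% of all probe sets. The share in the set was thus above that of all probe sets for replicate 2 as well as for replicate 1. The replicate 1 arrays also had the highest score of their genotype on the second component of the whole array (7.71 in wild type, 20.5 in Th3/+ and 25.5 in Th3/Th3). The part of that shift in the result was not tested, and the labels do not say what samples with 1 number share.

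Related genes of the ER, with some cytosolic and nuclear factors that act with it (such as Srp14, Ufd1 and Nfya), show where the set's calls sit in the pathway. Over 5 lists, 97 measured genes gave 94 tested, with a median difference of 0.16 in Th3/Th3 against wild type. Of the 94, 27 rose (28.7%, beside 7.31% of all probe sets called higher) and 6 fell (beside 4.98% of all probe sets called lower). In Th3/+ against wild type 0 of the 94 were called by limma. An unadjusted p under 0.05 was found there in 7 of the 94, and in 645 of the 17742 probe sets. In Th3/Th3 against Th3/+ 18 rose and 1 fell, beside 4.01% of all probe sets called higher and 3.26% called lower.

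Among 24 cochaperones, isomerases and oxidoreductases of the lumen, 5 rose and 0 fell (median 0.16), beside 7.31% of all probe sets called higher. Ero1a, the paralog of the dim member Ero1b, read 7.69, 7.17 and 6.90 on the wild type arrays, 7.58, 7.92 and 7.32 on the Th3/+ arrays and 9.48, 9.33 and 9.41 on the Th3/Th3 arrays. Its Th3/Th3 arrays stood far above the other 6, with a difference from wild type of 2.15 (adjusted p 0.000447). Dnajb9, a J-domain partner of BiP, rose by 1.86 (5.18 ± 0.08 in wild type and 7.05 ± 0.40 in Th3/Th3, SD, n = 3, adjusted p 0.000521), while BiP itself was not called. Sdf2, the paralog of Sdf2l1, rose by 1.36 (adjusted p 0.00762).

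Beside 7.31% of all probe sets called higher and 4.98% lower, 9 of 26 tested further ERAD components rose and 1 fell (median 0.21). Those with the smallest adjusted p were Ubxn4, Ufd1 and Ubxn6. Ubxn4, which brings p97 to the ER membrane, rose by 1.88 (adjusted p 0.000938), Ufd1, which forms a dimer with NPL4, by 0.62 (adjusted p 0.00204) and Ubxn6 by 0.81 (adjusted p 0.00244).

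Of the 20 tested genes of signal peptide targeting, translocon and signal peptidase, 9 rose and 2 fell. The median of 0.50 was the highest of the lists, whereas none of the 4 protein entry genes of the set was called. For this list and those that follow, the shares of all probe sets are again 7.31% called higher and 4.98% lower. Sec11c, a catalytic subunit of signal peptidase, rose by 0.90 (adjusted p 0.00224) and Srp14, a signal recognition particle subunit, by 0.81 (adjusted p 0.00296), while the translocon protein Tram1 fell by 0.93 (adjusted p 0.00198). Of 13 genes of the oligosaccharyltransferase, which attaches sugar chains, and of glucose trimming, 2 rose and 2 fell (median -0.04), with Dad1 at 0.78 (adjusted p 0.00255), Rpn1 at 0.66 (adjusted p 0.0227) and Ganab at -0.54 (adjusted p 0.0312, a fall lost in 7 of 20 alternatives). Of 11 tested further stress sensors and modulators, 2 rose and 1 fell (median -0.00): Tmbim6 at 0.60 (adjusted p 0.0329), Tmem33 at 0.56 (adjusted p 0.0465) and Nfya, a subunit of the CCAAT-binding factor NF-Y, at -0.70 (adjusted p 0.0138). Without wild type replicate 2 the risen genes numbered 3 rather than 5 in the lumen list, 5 rather than 9 in the targeting list and 1 rather than 2 in the oligosaccharyltransferase list, which also held 1 without Th3/Th3 replicate 3 or wild type replicate 1. The stress sensor count of 2 fell to 0 or 1 whichever array was left out.

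**Figure D5:**
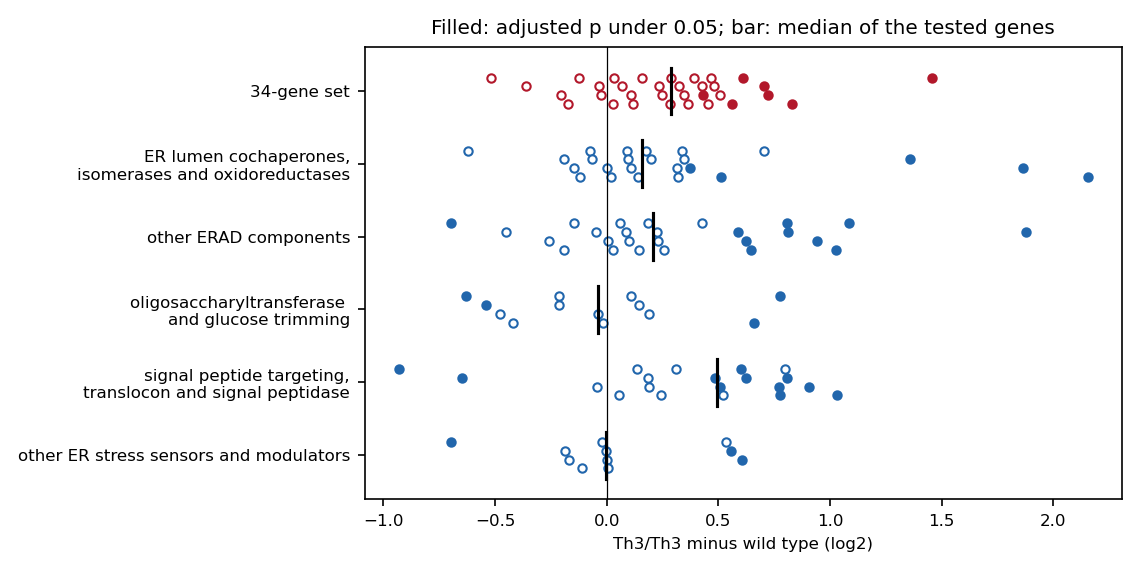
Log2 difference of Th3/Th3 minus wild type for each tested gene of the 34-gene set (red) and of the 5 related lists (blue), with filled points at an adjusted p under 0.05 and a bar at each list's median. Medians run from -0.04 (oligosaccharyltransferase and glucose trimming) to 0.50 (targeting, translocon and signal peptidase), with 0.29 for the 34-gene set.

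Markers of other fetal liver cells were read on the same arrays, since a sort can carry some of them along. Of 10 tested macrophage markers 3 fell in Th3/Th3 against wild type, beside 4.98% of all probe sets called lower. Of the 14 measured, 3 (Cd163, Mertk and Mrc1) were below the filter level on all arrays. The mean macrophage level was 4.98 to 5.19 in wild type, 4.89 to 5.42 in Th3/+ and 4.61 to 4.75 in Th3/Th3. Of 12 tested hepatoblast markers 0 were called by limma, with 0 at an unadjusted p under 0.05 and mean levels of 6.25 to 6.52, 6.28 to 6.74 and 6.21 to 6.43. Of 7 megakaryocyte markers 2 were lower, beside the same 4.98%, with mean levels of 6.73 to 6.97, 6.76 to 6.97 and 6.33 to 6.53. No marker of granulocytes and mast cells, of lymphoid and plasma cells or of endothelial and stromal cells was called by limma, with 0, 1 and 0 at an unadjusted p under 0.05, and 4 of each list were below the filter level on all arrays. The part that the lower erythroblast and macrophage markers have in the ER genes' values was not tested.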

How the data were processed

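Gene expression was measured on 9 oligonucleotide arrays, 1 per sorted sample. The deposited table holds 1 log2 value per probe set and array, made by the authors with MAS5, per the submitters' processing notes. These name no version, build, background correction or filter, and log2 is read from the values' range (2.12 to 14.20). Some values recur exactly on several arrays, such as 7.545 for Syvn1 on wild type replicate 3 and Th3/+ replicates 2 and 3. The cause of such ties, and their part in the spread, was not tested. Arrays have no read depth, and their number limits the precision.

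Of 35556 probe sets, 6617 with identifiers below the first annotated one were left out as the control block. Of the other 28939, 21789 have 1 gene symbol in the platform annotation, 1621 several and 5529 none listed here. Probe sets that exceeded the 40th percentile on 3 or more arrays (17742, with 12898 named genes) were fitted with 1 mean per genotype over all 9 arrays in limma 3.58.1 (R 4.3.3, lmFit, eBayes with trend). Tests are two-sided, adjusted by Benjamini-Hochberg over these probe sets and called at an adjusted p under 0.05, and the code was tested on simulated data. All 33 tested members were above that level on all 9 arrays. An exact permutation of 3 against 3 arrays was not used, and the calls rest on limma's moderated variance.

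Per-array values are given for members called in any pairwise comparison and for Hspa5, Hsp90b1, Xbp1, Atf6 and Ern1, and up to 3 called genes by smallest adjusted p are named from each related list. Members, related lists and marker lists were chosen with earlier results of these data known. Promoter windows are RefSeq's (GRCm38.p6). Samples with the same replicate number were not taken as pairs.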

Additional observations from a re-analysis of the deposited data

How the results depend on the processing

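Of 20 alternatives, 19 were planned and 1, keeping the control block, was added after the data were seen. Among the 33 ER genes, 7 called in Th3/Th3 against wild type became 4 without the replicate 1 arrays of Th3/+ and Th3/Th3 (3 of the 7, and Pdia3), and 2 to 7 when each array was left out in turn. The 4 called in Th3/Th3 against Th3/+ became 2 with no filter, 1 without both replicate 1 arrays, 1 in a fit on these genotypes alone, and 1 to 3 when each array was left out. Th3/+ against wild type stayed at 0 throughout, and array weights gave 1 call against the midpoint (Pdia4, lower). No call reversed. Fits without an array had fewer samples. Vcp also lost its call under median centring, Tmbim6 under quantile normalization, and Tmem33 under quantile normalization, array weights and the block, and the cause was not tested. Same-numbered arrays deviated from their group means with correlations of -0.13 to 0.36, 6 of 9 over 0.1, against 4 of 18 for different numbers. For 5 of 9 arrays, the 2 most alike arrays of the other genotypes both carried the same number. That is a hint from the data of something shared, but not every pair passed 0.1 and the labels name no pairing, so the numbers were not used as pairs. The replicate block called 9 genes in Th3/Th3 against wild type (with Pdia3 and Syvn1), 6 in Th3/Th3 against Th3/+ (with Pdia3 and Nploc4), and 0 in the other comparisons. With 3 arrays per genotype, differences such as 0.35 in Hsp90b1 (interval -0.06 to 0.75) cannot be told from 0.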
